A study of Mus musculus with 4 samples.

Results

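The nuclei described here are hippocampal nuclei that carried RNA of Rmst, Ebf1 and 6 genes detected with them. They were 1921 of 47103 kept nuclei in 4 single-nucleus RNA libraries of mouse hippocampus. A kept nucleus was a barcode with at least 600 unique molecular identifiers (UMIs, each standing for 1 captured RNA molecule) and at most 5% mitochondrial UMIs. A kept nucleus was counted in when it held at least 3 UMIs, from at least 2 genes, of Rmst, Ebf1, C130073E24Rik, 4930555F03Rik, Gm45321, Gm2516, B230217J21Rik and Scn9a. That sum also had to exceed the summed UMIs of Grik4, Trps1, Man1a, Galntl6, Prox1, Glis3, Synpo2 and Lef1, and at most 1 UMI of Flt1, Cldn5, Pdgfrb and Rgs5, genes of vessel cells, was allowed. The 8 genes were picked on these data, so their levels in the gated nuclei are a description and no test is made of them.

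The Trained libraries (n = 2) came from mice trained in active place avoidance, a task in which an animal learns to stay out of a shock zone, and the Untrained libraries (n = 2) from untrained controls. Tissue was taken 3 days after the memory retention test. All 4 libraries carry the genotype ArcCreERT2::eYFPflx, in which the promoter of the activity gene Arc drives an inducible Cre recombinase that switches on a yellow fluorescent protein, so the controls carry both alleles too. The libraries hold nuclei of the whole hippocampal dissection, and nuclei bearing the tag were not analysed here as a separate class. The design text names 2 mice a group but no label ties a library to a mouse, so the p-values below cover these libraries only. In the edgeR fits the spread is estimated jointly over many genes. A gene whose own 2 libraries of a group lie far apart can therefore still pass.

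Rmst is a long noncoding RNA of neural progenitors and neurons that is known to work with the factor SOX2. EBF1 belongs to the EBF family of helix-loop-helix transcription factors, which act in neuronal differentiation and in B cells, bind DNA as dimers and pair with the zinc finger proteins ZFP423 and ZFP521. Scn9a encodes the sodium channel Nav1.7, best known from pain-sensing neurons, and the other genes of the rule give noncoding RNAs whose roles are not described here.

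Of the 8 genes, 4 are neighbouring noncoding RNAs of chromosome 8, namely 4930555F03Rik, Gm45321, Gm2516 and C130073E24Rik. Rmst lies on chromosome 10, Ebf1 on chromosome 11, Scn9a on chromosome 2 and B230217J21Rik on chromosome 12. The counts were made on GRCm39, and the gene order used here is that of the GENCODE annotation of GRCm38. RefSeq promoter windows of 300 bases (GRCm38.p6) were matched for 4 of the 8 genes, with 10 annotated starts between them. The 2 windows shown were chosen after the search, as the ones of the 10 that hold the letters TAATTA; the other 5 starts of 4930555F03Rik do not. The first is a start of 4930555F03Rik at chr8:49472653-49472952 and the second the start of Gm2516 at chr8:50367862-50368161, both on the plus strand and written 5′ to 3′. Capitals mark TAATTA, the core letters that homeodomain factors prefer, which reads the same on both strands.
4930555F03Rik: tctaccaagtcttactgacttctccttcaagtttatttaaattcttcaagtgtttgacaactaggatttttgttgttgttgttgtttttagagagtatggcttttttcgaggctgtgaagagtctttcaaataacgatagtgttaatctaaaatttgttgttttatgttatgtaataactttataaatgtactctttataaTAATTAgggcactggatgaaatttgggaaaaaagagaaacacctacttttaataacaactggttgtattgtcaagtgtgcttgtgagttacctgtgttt
Gm2516: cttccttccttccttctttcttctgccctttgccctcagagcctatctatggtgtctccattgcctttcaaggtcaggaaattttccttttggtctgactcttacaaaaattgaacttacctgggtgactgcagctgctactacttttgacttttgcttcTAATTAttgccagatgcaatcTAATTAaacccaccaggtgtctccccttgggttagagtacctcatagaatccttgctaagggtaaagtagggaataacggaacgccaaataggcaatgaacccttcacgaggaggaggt
TAATTA occurred 1 time in this window of 4930555F03Rik and 2 times in that of Gm2516. It occurred in 2 of the 10 windows, and in 5.291% of all 32851 windows. The 10 windows are not independent: 6 belong to 4930555F03Rik, and the first 3 of these, from 49370636, 49370647 and 49370654, share most of their bases. No test is made of these shares. The palindromic EBF motif, searched on both strands, occurred in 0 of the 10 windows and in 0.9041% of all windows. A match describes the letters only, and its absence says only that those letters were not in the window.

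The 4 libraries held 23155826 to 39749125 UMIs over 41903 to 79810 barcodes, and 6019 to 16916 barcodes a library were kept. The gated nuclei were shallow: their median was 745.5 and 904 UMIs in Trained replicates 1 and 2 and 967 and 1093 in Untrained replicates 1 and 2. In the same order their median mitochondrial shares were 0.296%, 0.282%, 0.489% and 0.405%. For either measure the groups did not overlap, and the two-sided exact permutation test gave p = 0.333, the smallest that 2 libraries against 2 can give. Trained replicate 1 held 140 of the gated nuclei and 112642 of their UMIs, the fewest of the 4 libraries, against 816 nuclei and 983491 UMIs in Untrained replicate 2. Of the gated nuclei, 2, 7, 2 and 12 by library had a barcode sequence that another library also kept. No doublet caller was run; instead, 47, 152, 209 and 371 of the gated nuclei held at least 2 UMIs of oligodendrocyte, microglia or vessel genes.

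The gate was met by few UMIs. Exactly 3 UMIs of the 8 genes were present in 440 gated nuclei, 4 in 371 and 5 or more in 1110. Just outside it, 529 nuclei held 2 UMIs from 2 of the genes, 103 held 3 or more from a single gene, and 721 held enough UMIs but no more than their UMIs of Grik4, Trps1, Man1a, Galntl6, Prox1, Glis3, Synpo2 and Lef1. Vessel genes alone kept out 4.

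Noncoding RNAs of chromosome 8 rather than Rmst or Ebf1 were the most widely detected genes of the gate. At least 1 UMI of 4930555F03Rik was present in 65.6% of the gated nuclei, of C130073E24Rik in 64.4%, of Gm45321 in 53.0% and of Gm2516 in 35.6%. Rmst was present in 45.4%, Scn9a in 36.7%, Ebf1 in 35.0% and B230217J21Rik in 15.9%. Levels are given as CPM, the UMIs of a gene per 1000000 summed UMIs of a class of nuclei in 1 library. In such a sum, fewer nuclei with an RNA and less RNA per nucleus cannot be told apart. The libraries count RNA ends, so CPM is not divided by gene length and a level is compared for the same gene between classes only. Rmst stood at 497 and 615 CPM in the gated nuclei of Trained replicates 1 and 2 and at 523 and 804 CPM in Untrained replicates 1 and 2. In all other kept nuclei of the same libraries Rmst stood at 65.7, 51.2, 39.4 and 71.3 CPM. Ebf1 stood at 613, 442, 469 and 620 CPM in the gated nuclei and at 61.9, 24.95, 25.9 and 41.3 CPM in the others. For both genes every library of gated nuclei lay above every library of the others, which the gate itself fixes.

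The 5 classes set beside the gated nuclei were nuclei outside the gate with at least 3 UMIs, from at least 2 genes, of dentate granule, CA1, CA3, thalamic excitatory or inhibitory neuron markers. The markers of a class also had to outnumber those of each other class. Ebf1 was at 81.4 to 155 CPM in the thalamic class, the highest of the 5, and at 2.94 to 34.6 CPM in the inhibitory class. The chromosome 8 RNAs had the opposite order: C130073E24Rik was at 70.4 to 173 CPM in the inhibitory class and 23.8 to 65.6 CPM in the thalamic class, and 4930555F03Rik at 91.7 to 187 and 25.6 to 34.1 CPM. Scn9a was likewise highest in the inhibitory class, at 86.6 to 266 CPM, with 34.2 to 131 CPM in the thalamic class. Low-UMI barcodes, those near or below the depth at which barcodes were most frequent, served as a profile of free RNA. The lowest barcode held 101 and 174 UMIs in Trained replicates 1 and 2 and 201 and 251 in Untrained replicates 1 and 2. Emptier barcodes are absent from the counts, and in Trained replicate 2 the most frequent depth, 199 UMIs, lay close to that limit. In low-UMI barcodes Rmst was at 16.0 to 38.9 CPM and 4930555F03Rik at 5.82 to 17.1 CPM.

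**Figure D1:**
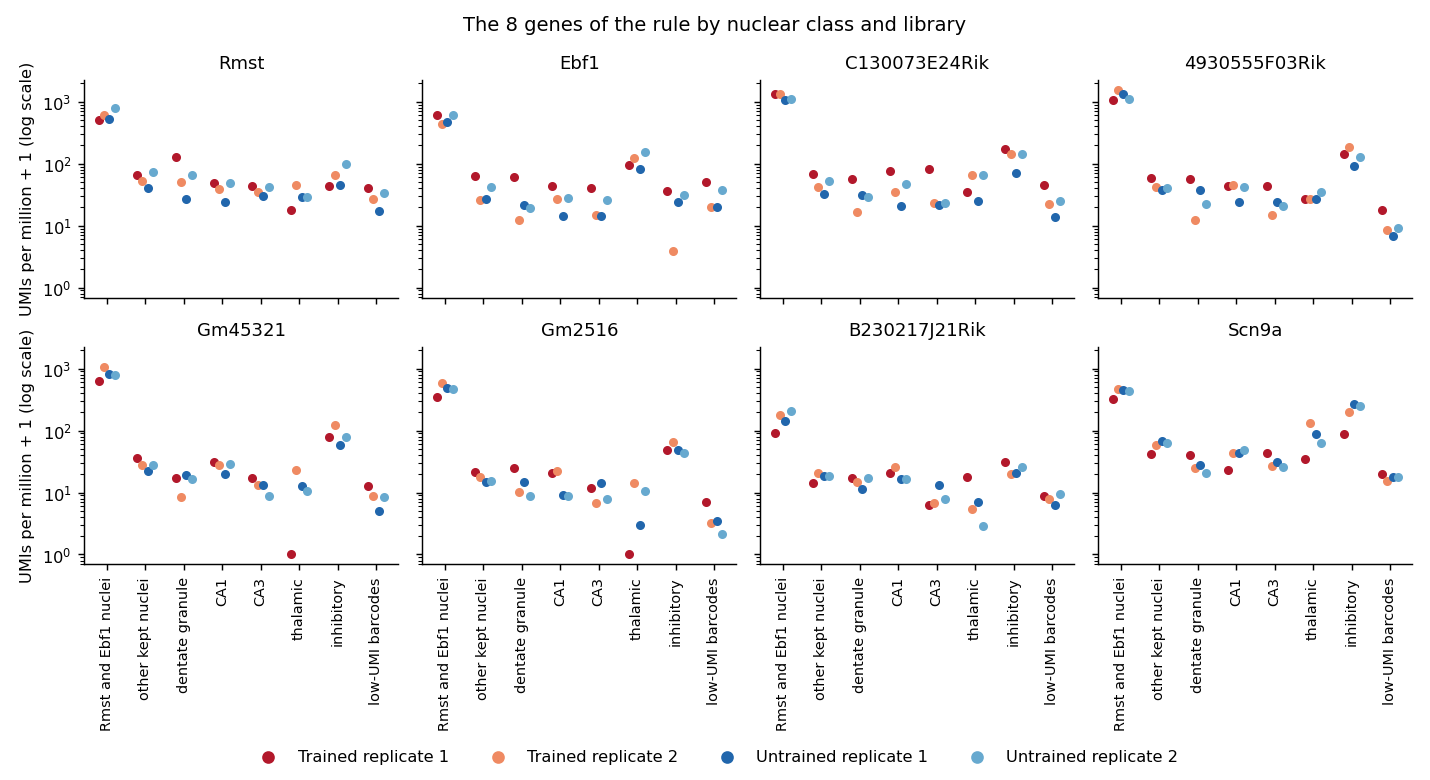
Each panel plots 1 of the 8 genes of the gate, as CPM plus 1 on a log axis, in 8 classes of nuclei or barcodes, with 1 point per library coloured by library. The gated nuclei are highest for every gene by construction. Outside them Ebf1 is highest in the thalamic class, at 81.4 to 155 CPM, and 4930555F03Rik in the inhibitory class, at 91.7 to 187 CPM.

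The 8 genes were not detected together at 1 rate. All kept nuclei were thinned to 600 UMIs each, and the number of nuclei with 2 given RNAs was divided by the number that independent detection within each library would give. The 6 pairs among the chromosome 8 RNAs were seen together 7.29 to 10.4 times as often as that. Rmst with Ebf1 reached 3.88 times, and the 8 pairs of Rmst or Ebf1 with a chromosome 8 RNA reached 3.37 to 4.59 times. The 13 pairs with Scn9a or B230217J21Rik reached 2.40 to 3.47 times. The ratio of Rmst with Ebf1 thus lay within the range of their pairs with the chromosome 8 RNAs. These ratios describe 47103 nuclei of 4 libraries, and the genes were chosen because they were detected together.

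**Figure D2:**
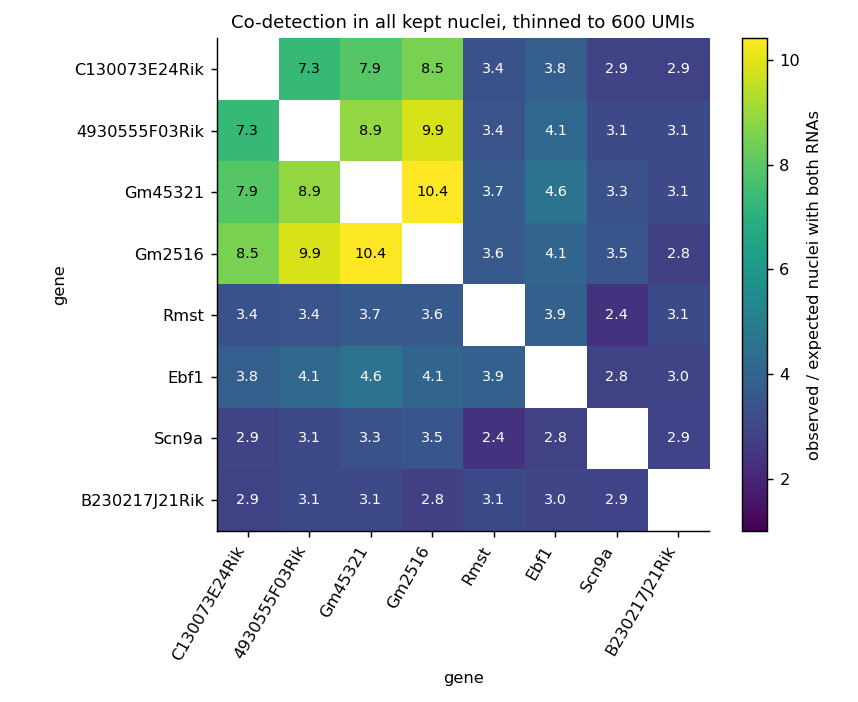
The grid gives, for each pair of the 8 genes, the kept nuclei with both RNAs divided by the number independent detection would give, after thinning to 600 UMIs. The 6 pairs of chromosome 8 RNAs form the brightest block, at 7.29 to 10.4, and all other pairs lie between 2.40 and 4.59.

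The chromosome 8 RNAs sit in 1 stretch of the annotation that runs from Tenm3, a gene for a teneurin adhesion protein, to C130073E24Rik. That stretch holds 22 annotated genes, 12 of them in the deposited tables, and Tenm3 is the only 1 that codes for a protein. Of the others in the tables, 7 noncoding RNAs were above 30 CPM in the gated nuclei of every library and 4 were below. Of these 7, Gm45323, Gm45341 and Gm19744 were not in the rule. Gm45323 stood at 213, 385, 225 and 256 CPM in the gated nuclei of Trained replicates 1 and 2 and Untrained replicates 1 and 2, and at 12.0 to 26.0 CPM in other kept nuclei. Gm45341 stood at 107, 184, 121 and 164 CPM, against 6.32 to 14.3 CPM. Tenm3 stood at 1403, 1554, 1116 and 1539 CPM, against 407 to 573 CPM. In the thalamic class Tenm3 stood at 1008 to 1463 CPM, a range that overlaps that of the gated nuclei. Whether some of these RNAs are parts of 1 transcript was not tested.

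The gated nuclei fell into subsets that carried different neuronal genes. Both a chromosome 8 RNA and Rmst or Ebf1 were detected in 1057 of the 1921 nuclei (55.0%), chromosome 8 RNAs without Rmst or Ebf1 in 725 (37.7%), Rmst or Ebf1 without a chromosome 8 RNA in 129 (6.72%) and none of these in 10 (0.521%). Nuclei with both made up 47.1% and 42.6% of the gated nuclei in Trained replicates 1 and 2 and 50.7% and 66.1% in Untrained replicates 1 and 2. Untrained replicate 2, whose gated nuclei had the highest median UMIs, had the largest share with both. At this depth a missing Rmst or Ebf1 UMI does not show that the gene was silent. The genes below were chosen after their values in the subsets were seen, and no test is made.

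Several genes were higher in nuclei with chromosome 8 RNAs alone than in nuclei with both. Adarb2, which marks interneurons from the caudal ganglionic eminence, stood at 2865, 4156, 3352 and 3159 CPM in nuclei with chromosome 8 RNAs alone, in Trained replicates 1 and 2 and Untrained replicates 1 and 2. It stood at 1003, 612, 560 and 518 CPM in nuclei with both. Adarb2 was not confined to inhibitory nuclei in these data. In Trained replicate 1 at least 1 UMI of it was present in 88.5% of the thalamic and 58.2% of the dentate granule class. The inhibitory class had 48.3% and the gated nuclei 45.0%. Dlx6os1, a noncoding RNA of GABAergic neurons, stood at 257, 289, 148 and 189 CPM with chromosome 8 RNAs alone. With both it stood at 12.3 to 36.8 CPM. Neither gene overlapped between these subsets in any library. The collagen gene Col19a1 stood at 296 to 414 CPM with chromosome 8 RNAs alone and at 18.6 to 44.2 CPM with both. Maf, a factor of interneuron development, stood at 159 to 242 CPM against 18.6 to 58.9 CPM. Kcnmb2, a subunit of calcium-activated potassium channels, stood at 198 to 535 CPM against 55.7 to 110 CPM. Each of these 5 genes was thus higher in every library of the subset without Rmst and Ebf1. The enzymes that make GABA differed less: Gad1 stood at 121 to 180 CPM against 62.3 to 111 CPM, and Gad2 at 79.0 to 274 CPM against 58.9 to 114 CPM, the latter with overlapping ranges. Nxph1, for a neurexin ligand of interneurons, stood at 237, 838, 778 and 674 CPM against 353, 498, 309 and 363 CPM. In Trained replicate 1, Gad2 and Nxph1 were lower with chromosome 8 RNAs alone. The 10 nuclei with none of these RNAs held 0 UMIs of Dlx6os1 and of Col19a1.

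Nuclei with both carried other genes. Zfp521, a partner of EBF factors, stood at 111, 104, 81.0 and 143 CPM with both and at 19.8, 23.3, 16.0 and 44.4 CPM with chromosome 8 RNAs alone. Every library of the former was above every library of the latter. The cadherin gene Cdh18 stood at 836 to 1462 CPM with both and at 395 to 852 CPM without Rmst and Ebf1, which overlap slightly. Within each library Cdh18 was higher with both. Htr2c, a serotonin receptor gene, stood at 316 to 581 CPM against 192 to 333 CPM. Tcf7l2, a Wnt pathway factor that marks thalamic and habenular neurons, stood at 280 to 397 CPM against 102 to 316 CPM. For both genes the ranges overlapped, while each library was higher with both RNAs than without Rmst and Ebf1. Ebf2 and Ebf3 rested on 74 and 86 UMIs with both and on 13 and 15 UMIs with chromosome 8 RNAs alone, in all 4 libraries. The 129 nuclei with Rmst or Ebf1 alone rested on few UMIs, among them 1 UMI of Dlx6os1, 4 of Col19a1 and 20 of Zfp521.

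**Figure D3:**
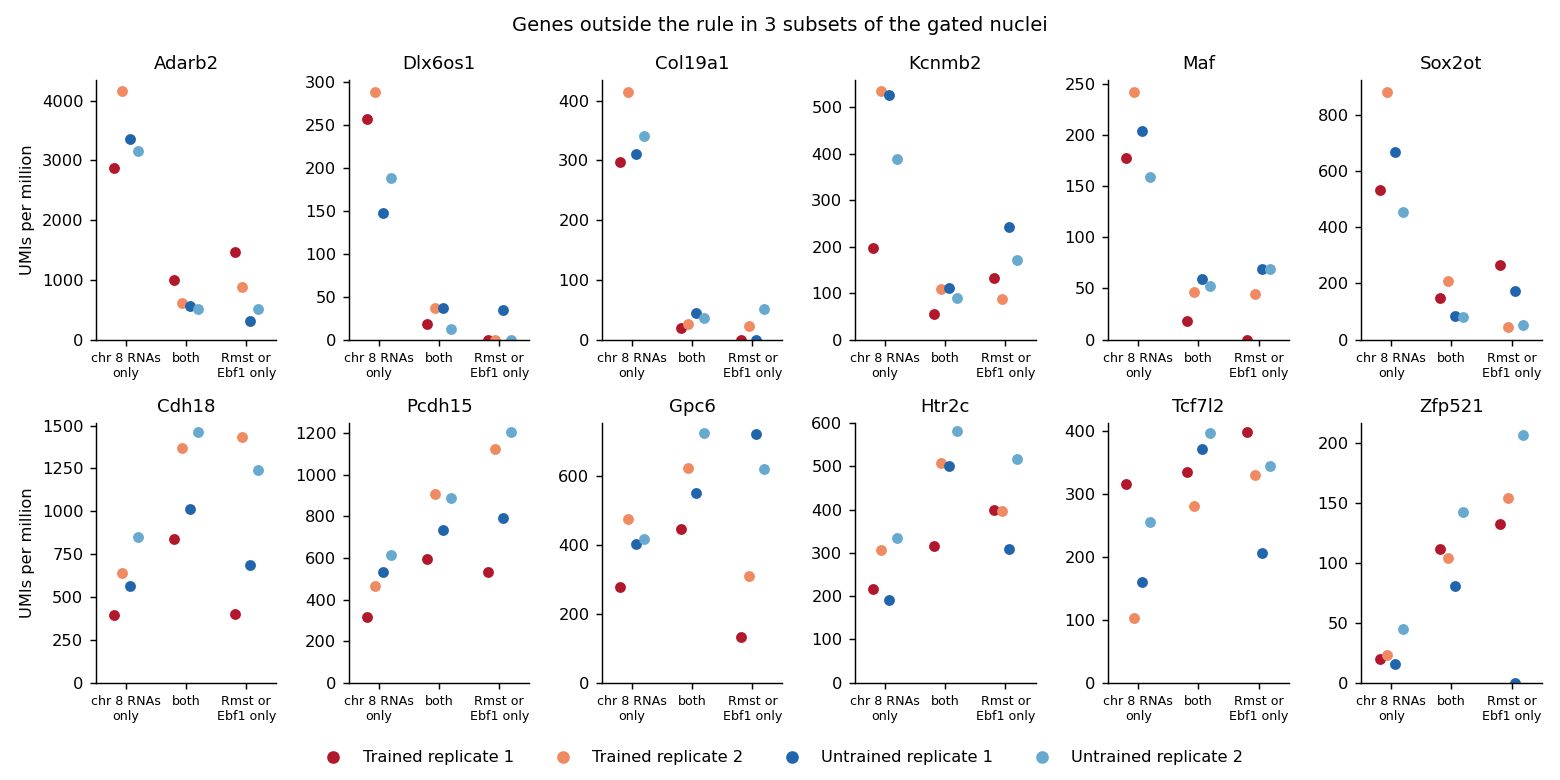
Each panel plots 1 gene outside the gate, in CPM from 0, in 3 subsets of the gated nuclei, with 1 point per library. Adarb2, Dlx6os1, Col19a1, Kcnmb2, Maf and Sox2ot are high in nuclei with chromosome 8 RNAs alone, and Zfp521 is at 81.0 to 143 CPM in nuclei with both against 16.0 to 44.4.

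The label of Rmst and Ebf1 neurons therefore covers nuclei of more than 1 profile, and at least 1 UMI of Rmst or Ebf1 was present in 53.6%, 52.4%, 56.0% and 71.9% of the gated nuclei of Trained replicates 1 and 2 and Untrained replicates 1 and 2. After thinning to 600 UMIs these shares were 45.7%, 41.9%, 44.2% and 52.3%, against 6.74%, 3.96%, 3.72% and 6.21% of other kept nuclei. Unthinned, 5.58% to 13.9% of the inhibitory class, at a median of 771 to 1182.5 UMIs, held such a UMI. The inhibitory markers of the comparison class were met by 418 gated nuclei (21.8%), which was 12.9%, 23.6%, 22.3% and 21.9% by library. Of other kept nuclei, 4.58% to 5.96% met them. The markers of none of the 5 classes were met by 1350 gated nuclei (70.3%), and 48, 52, 37 and 16 met those of dentate granule, CA1, CA3 and thalamic neurons. Of other kept nuclei, 60.1% to 73.0% met none by library. Markers of the latter classes include Prox1, Glis3, Man1a, Galntl6, Grik4, Trps1, Lef1 and Synpo2, which the rule required to be outnumbered. The rule thus in part fixes those counts and the 70.3%. No inhibitory marker is among these genes, but a nucleus met the inhibitory markers only where they outnumbered the markers of each other class. The rule thus also favours the 21.8%, and by how much was not tested.

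Transmitter genes did not assign the gated nuclei to 1 class. The GABAergic list (7 genes, among them Gad1, Gad2 and Erbb4) summed to 1989, 2696, 2300 and 2349 CPM by library in the order above. The same list summed to 947 to 1025 CPM in other kept nuclei and to 7264 to 8848 CPM in the inhibitory class, which was chosen with 6 of these genes. Slc32a1, the vesicular GABA transporter, was at 0 to 16.3 CPM, and Gad1 at 85.3 to 124 CPM, both below their 52.9 to 62.8 and 155 to 207 CPM in low-UMI barcodes. The glutamatergic list (8 genes) summed to 2557, 2157, 1987 and 1844 CPM, below the 2983 to 3323 CPM of other kept nuclei. Slc17a6, the vesicular glutamate transporter of thalamus and brainstem, stood at 71.0, 54.7, 64.9 and 79.3 CPM in the gated nuclei and at 29.8 to 59.1 CPM in the others. In low-UMI barcodes it stood at 72.6 to 129 CPM, and the part of free RNA in its level in the gated nuclei was not tested.

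Markers of several other neuron types were present in part. The Cajal-Retzius list (12 genes) summed to 604 to 803 CPM against 420 to 492 CPM in other kept nuclei. It summed to 645 to 809 CPM in CA3, 709 to 1240 CPM in thalamic and 760 to 974 CPM in inhibitory nuclei. In dentate granule and CA1 nuclei it summed to 159 to 368 and 242 to 371 CPM. Of its genes, Trp73 was at 0 to 8.88 CPM, Lhx1 at 0 to 4.38 CPM, Lhx5 at 0 to 1.80 CPM, and Cxcr4 had 0 UMIs in the gated nuclei. Ebf3 was the 1 gene of the list more than 1 log2 unit above other kept nuclei in every library, with 20 CPM added. Its lowest difference was 1.14. Reln, a secreted protein of Cajal-Retzius cells and of interneurons, stood at 88.8, 162, 132 and 170 CPM, against 46.9 to 59.0 CPM in other kept nuclei. It was higher still in the inhibitory class, at 243 to 387 CPM. The habenula list (10 genes) summed to 843, 405, 869 and 806 CPM, against 469, 238, 413 and 347 CPM in other kept nuclei of the same libraries, so it was higher in each library. Of its genes, Kctd8, an auxiliary subunit of GABA-B receptors, stood at 311, 184, 317 and 300 CPM, against 58.3 to 102 CPM. Nwd2, which habenular neurons express strongly, stood at 257, 37.2, 297 and 244 CPM, against 201, 73.7, 126 and 107 CPM, higher in 3 of the 4 libraries. Chrnb4, Chrna3 and Gpr151, for 2 nicotinic receptor subunits and an orphan receptor of the habenula, were each at or under 3.61 CPM. The list of cholinergic and monoamine genes (11 genes) summed to 21.9 to 53.3 CPM, and that of pericyte and endothelial genes (11 genes) to 56.9 to 97.7 CPM.

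The other EBF genes were low but present. Ebf3 stood at 35.5, 32.8, 30.6 and 72.2 CPM in the gated nuclei and at 1.68 to 5.12 CPM in the others. Ebf2 stood at 8.88, 45.9, 9.01 and 66.1 CPM, resting on 1, 21, 5 and 65 UMIs, and was uneven between replicates of both groups. Ebf4, at 10.9 to 26.6 CPM, overlapped its 17.9 to 21.5 CPM in other kept nuclei. The list of EBF factors and partners (6 genes, Ebf1 included) summed to 799, 654, 645 and 974 CPM, against 95.6 to 159 CPM in other kept nuclei. Ebf1, which the rule itself sets high, made up 613, 442, 469 and 620 CPM of these sums.

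Beyond the rule, 27 of 4802 genes that reached 30 CPM in the gated nuclei of every library were more than 1 log2 unit above other kept nuclei in every library, with 20 CPM added to both levels. The 25 with the highest such minimum are described here, as a description that the gate in part fixes. Gm45323 and Gm45341 of the chromosome 8 stretch led, with lowest log2 differences of 2.34 and 1.88. Col16a1, a collagen gene, followed at 133, 91.9, 124 and 132 CPM against 15.4 to 19.0 CPM. Gpc6, which encodes a heparan sulfate proteoglycan that astrocytes release, stood at 346, 521, 490 and 633 CPM against 116 to 164 CPM. Both lay above every comparison class, where Gpc6 reached 269 CPM in the inhibitory class and Col16a1 26.9 CPM.

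Several genes of this group act in cell adhesion and guidance. Cdh18 had a lowest log2 difference of 1.14, the contactin gene Cntn6 of 1.04, the netrin receptor gene Unc5d of 1.04 and Sdk1, for a synaptic adhesion protein, of 1.20. Erbb4, the neuregulin receptor of interneurons, stood at 1261, 1523, 1388 and 1443 CPM, against 505 to 572 CPM in other kept nuclei and 4368 to 5769 CPM in the inhibitory class. The gated nuclei thus lay between the others and that class. The RNA-binding protein gene Rbms3 stood at 719, 825, 799 and 800 CPM, with 699 to 774 CPM in the inhibitory and 657 to 744 CPM in the thalamic class. Alk, a receptor tyrosine kinase gene, stood at 178, 313, 265 and 294 CPM, below the 320 to 393 CPM of the inhibitory class. The transcription factor gene Npas3 (1.20), Vwc2 (1.24), Kctd8 (1.38), Col19a1 (1.21), Ebf3 (1.14), Ankrd55 (1.08), Klhl1 (1.07), Mtss1 (1.06) and Gm13629 (1.28) completed the named genes, with their lowest log2 difference in brackets. Htr2c reached 1.04, at 275, 405, 348 and 513 CPM against 65.0 to 125 CPM.

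Summed levels of several channel and receptor lists were lower than in other kept nuclei, while the median gene of each list differed little. The 28 potassium and HCN channel genes summed to 15598, 12807, 12557 and 12422 CPM, against 20606, 20386, 18419 and 19794 CPM, without overlap. The 13 calcium channel genes summed to 4152 to 4785 CPM against 5035 to 5711 CPM, and the 13 GABA-A receptor genes to 3122 to 3498 CPM against 3521 to 3892 CPM. The 14 sodium channel genes summed to 1980 to 2199 CPM against 1592 to 1740 CPM, Scn9a included. The inhibitory class summed to 14261.5 to 15364 CPM for potassium and HCN channels and 3989 to 5139 CPM for calcium channels, overlapping the gated nuclei. It summed to 3759 to 4247 CPM for GABA-A receptors and 1664 to 1870 CPM for sodium channels, without overlap with the gated nuclei. Of these 14 sodium channel genes, only Scn9a was more than 1 log2 unit higher in every library, and it was in the rule. Scn2a, an axonal channel of excitatory neurons, stood at 435, 341, 371 and 341 CPM, against 313 to 366 CPM in other kept nuclei. The median log2 difference was 0.05 over 23 glutamate receptor genes, -0.14 over 13 GABA-A receptor genes, -0.11 over 13 calcium channel genes and -0.06 over 28 potassium and HCN channel genes. Kcnip4, a subunit of A-type potassium channels, stood at 5930, 4076, 3798 and 3926 CPM, below the 7731 to 9217 CPM of other kept nuclei. The muscarinic receptor gene Chrm2 stood at 115, 171, 197 and 151 CPM, against 49.9 to 65.9 CPM. Over all genes at 30 CPM the median difference was 0.04.

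The genes whose level was most like that of Rmst over the gated nuclei and the 5 comparison classes in 4 libraries, 24 points that share libraries, were Samd4 (Spearman's rho 0.832), Xkr6 (0.824), Metap1d (0.817), Cep112 (0.802) and Ncam1 (0.765). The rule itself sets the 4 gated points of Rmst high, so this order rests in part on values that chose the nuclei, and it is a description.

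The gated nuclei made up 2.33% and 3.75% of kept nuclei in the 2 Trained libraries, replicate 1 first, and 2.997% and 6.82% in the Untrained ones. The exact 95% binomial (Clopper-Pearson) intervals, which cover counting error only, were 1.96% to 2.74%, 3.42% to 4.11%, 2.75% to 3.27% and 6.38% to 7.29%. Untrained replicate 2 stood apart and the groups overlapped, since Trained replicate 2 lay above Untrained replicate 1. The means were 3.04% ± 1.01 (SD, n = 2) after training and 4.91% ± 2.70 (SD, n = 2) without it. Their difference of -1.87 percentage points was smaller than the spread within the Untrained group, and the two-sided exact permutation test gave p = 0.667. Without Untrained replicate 2 the difference was 0.0421 points. Without nuclei of mixed profile the shares were 1.56%, 2.54%, 1.78% and 3.84% in the order above, and the difference was -0.763 points (exact permutation p = 0.667). Thinned to 600 UMIs a nucleus, the shares were 1.66%, 2.76%, 1.96% and 4.43% in the same order.

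**Figure D4:**
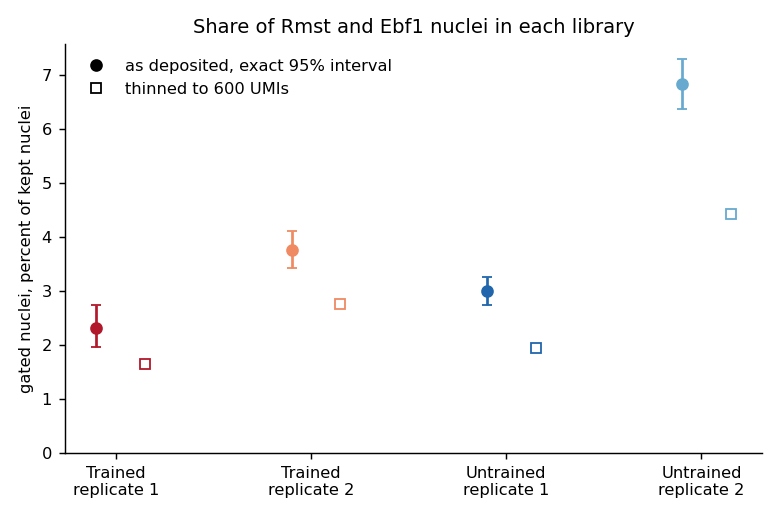
The plot gives the gated nuclei as a percent of kept nuclei in each library, with the exact 95% binomial interval as a bar (filled points), and the same share after thinning to 600 UMIs (open squares). Untrained replicate 2 is highest at 6.82%, and the other 3 libraries lie between 2.33% and 3.75%.

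Training was then compared within the gated nuclei, on UMI counts summed per library. Of 8320 genes tested, 5 passed an adjusted p of 0.05 (0.0601% of genes) with edgeR's quasi-likelihood test, 1 higher (0.012%) and 4 lower (0.0481%) in the Trained libraries, and 471 had an unadjusted p under 0.05. The 2 groups of libraries did not overlap for 2918 genes (35.1%), 1192 higher (14.3%) and 1726 lower (20.7%). DESeq2 called 1 gene, Ttr, and gave 63 genes an unadjusted p under 0.05.

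Ttr, which encodes the thyroid hormone carrier transthyretin that choroid plexus secretes, was higher after training. It stood at 1101 and 1107 CPM in Trained replicates 1 and 2 and at 297 and 473 CPM in Untrained replicates 1 and 2, so that the groups lay well apart. The log2 change was 1.54 ± 0.22 (SE, n = 2 and 2; edgeR adjusted p = 4.4e-08). The log2 change of Ttr was 1.46 ± 0.16 in other kept nuclei and 1.49 ± 0.30 in low-UMI barcodes (SE; edgeR adjusted p = 0.10028 and 0.442). Each class was fitted on its own, with its own estimate of spread, so adjusted p-values are not compared between classes. In low-UMI barcodes Ttr stood at 3464 and 4347 CPM in the Trained and 1017 and 1675 CPM in the Untrained libraries. The difference between its change in the gated and in other kept nuclei was 0.07 ± 0.18 (SE; edgeR adjusted p = 1). Ttr was also the 1 gene called in each of the 5 comparison classes, with log2 changes of 1.40 to 1.78, or 0.00874% of genes tested for dentate granule nuclei, 0.00831% for CA1, 0.0093% for CA3, 0.0165% for thalamic and 0.00991% for inhibitory nuclei. The choroid plexus list (8 genes, Ttr included) summed to 1633 and 1748 CPM in the Trained and 766 and 1114 CPM in the Untrained libraries of gated nuclei. The part of free RNA in the Ttr counts of the gated nuclei was not tested further, and after subtraction of the low-UMI profile the change was 2.35 with an adjusted p of 1 in edgeR.

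Rnf121, which encodes a ubiquitin ligase of the endoplasmic reticulum and Golgi, was lower after training. It stood at 53.3 and 37.2 CPM in the Trained and at 124 and 210 CPM in the Untrained libraries, a log2 change of -2.01 ± 0.34 (SE; edgeR adjusted p = 2.25e-05). The groups did not overlap, but the Trained values rested on 6 and 17 UMIs. In other kept nuclei its log2 change was -1.43 ± 0.25 (SE) and did not pass the test (edgeR adjusted p = 0.792). That fit had its own estimate of spread, so the missed threshold does not show a weaker change there. The gated nuclei differed from other kept nuclei by -0.60 ± 0.33 (SE), which did not pass the interaction test. Rnf121 was also lower without overlap in the CA3 class (-1.56, edgeR adjusted p = 0.0592) and the inhibitory class (-1.35). The same held for CA1 (-1.16) and for granule nuclei of the dentate (-1.52), and none of these changes passed. In the thalamic class the change was -0.44 and the groups overlapped. Without Trained replicate 2 or without Untrained replicate 2 the call in the gated nuclei was lost, with edgeR adjusted p = 0.493 and 0.125.

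Mecom, a zinc finger transcription factor gene also known as Evi1, and the noncoding RNA D130079A08Rik rested on fewer UMIs. Mecom stood at 17.8 and 13.1 CPM (2 and 6 UMIs) in the Trained and at 39.7 and 93.5 CPM (22 and 92 UMIs) in the Untrained libraries, a log2 change of -2.26 ± 0.47 (SE; edgeR adjusted p = 0.00341). D130079A08Rik stood at 71.0 and 0 CPM (8 and 0 UMIs) in the Trained and at 93.7 and 71.2 CPM (52 and 70 UMIs) in the Untrained libraries, so that a single library without a UMI carried its call. Trained replicate 2 was the lowest library for it elsewhere too, with 0 CPM in each of the 5 comparison classes and 0.253 CPM in other kept nuclei, against 6.995 to 18.8 CPM in the other libraries. Its fitted change depends on the handling of that 0, and it was -0.18 without Trained replicate 2 (edgeR adjusted p = 0.974). Mecom lost its call without Trained replicate 2 or without Untrained replicate 2, with edgeR adjusted p = 0.713 and 0.813.

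Nwd2, a gene for a protein with NACHT and WD repeat domains that is strong in habenular neurons, was called lower although its groups overlapped. It stood at 257 and 37.2 CPM in the Trained and at 297 and 244 CPM in the Untrained libraries, a log2 change of -1.42 ± 0.30 (SE; edgeR adjusted p = 0.0044). Trained replicate 2 alone was low, and without it the change was -0.06. Trained replicate 2 was also the lowest of the 4 libraries for Nwd2 in other kept nuclei (73.7 CPM against 107 to 201 CPM) and in low-UMI barcodes (32.4 CPM against 46.0 to 116 CPM).

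The 8 genes of the gate are not read for training, since every gated nucleus had to hold UMIs of them. Next after the called genes stood 3 with higher values in both Trained libraries that missed the threshold. The transcription factor gene Zbtb20, which shapes hippocampal neurons, stood at 1767 and 840 CPM against 636 and 759 CPM (edgeR adjusted p = 0.0855). Tanc1, for a scaffold protein of the synapse, stood at 231 and 133 CPM against 46.9 and 98.6 CPM (edgeR adjusted p = 0.0958). Zfpm2, for a cofactor of GATA factors, stood at 373 and 385 CPM against 196 and 213 CPM (edgeR adjusted p = 0.126). In other kept nuclei Zbtb20 was also higher in both Trained libraries, at 2224 and 2074 against 1265 and 1916 CPM. The groups overlapped there for Tanc1 (281 and 257 against 161 and 260 CPM) and Zfpm2 (338 and 421 against 305 and 366 CPM). In low-UMI barcodes all 3 genes were higher in both Trained libraries. None of the 3 passed the interaction test.

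Genes of memory and synaptic plasticity were tested as a list of 11, of which 9 passed the count filter and 0 passed the test. Homer1, for a postsynaptic scaffold, stood at 213 and 140 CPM in the Trained and 99.1 and 116 CPM in the Untrained libraries, with a log2 change of 0.62 ± 0.28 (SE; edgeR adjusted p = 0.821). Camk2a, the kinase of long-term potentiation, stood at 595 and 530 CPM against 443 and 413 CPM, a log2 change of 0.42 ± 0.23 (SE). The glutamate receptor genes Gria1 and Grin2b had log2 changes of 0.36 ± 0.21 and 0.37 ± 0.21 (SE). Prkcz and Prkci, whose kinases are studied in memory maintenance, had log2 changes of 0.04 ± 0.28 and 0.32 ± 0.34 (SE), and Wwc1 (KIBRA), their partner, 0.45 ± 0.32 (SE). Arc, whose promoter drives the Cre, stood at 35.5 and 15.3 CPM against 14.4 and 23.4 CPM, on 4 to 23 UMIs a library. The median over the 9 genes was 0.36, with 6 of 9 higher without overlap, against 14.3% of all genes tested and a median of 0.00 over them.

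Other lists were described the same way, each with 0 genes called. Of 67 cytosolic ribosomal protein genes, 65 had a fitted change below 0, with a median of -0.40, and 35 were lower in the Trained libraries without overlap, against 20.7% of all genes tested. Of 26 nuclear genes of oxidative phosphorylation, 24 were below 0 (median -0.39), and of 12 tested genes of the mitochondrial genome, 11 (median -0.55). Their summed levels were far higher in low-UMI barcodes than in the gated nuclei: ribosomal protein genes summed to 11212, 10553, 17030 and 12159 CPM in the gated nuclei of Trained replicates 1 and 2 and Untrained replicates 1 and 2, and to 35694 to 50214 CPM in low-UMI barcodes. Untrained replicate 1 was the highest in both. Mitochondrial share and depth moved with the groups as well, and the part of free RNA and of RNA quality in these medians was not tested. Markers of other cell types moved with the groups too: of 8 oligodendrocyte genes 6 were above 0 (median 0.41) and 5 higher without overlap, and of 6 tested dentate granule genes 6 were above 0 (median 0.46) and 3 higher without overlap. Of all 8320 genes tested, 4209 were above 0 and 14.3% were higher without overlap. Their part in the results was not tested. Of 5 tested EBF factors and partners, 5 were below 0 (median -0.30). That count includes Ebf1, a gene of the rule, at -0.07, which is not read for training. Of 6 tested GABAergic genes 5 were above 0 (median 0.15), and of 22 tested glutamate receptor genes 16 were above 0 (median 0.15).

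**Figure D5:**
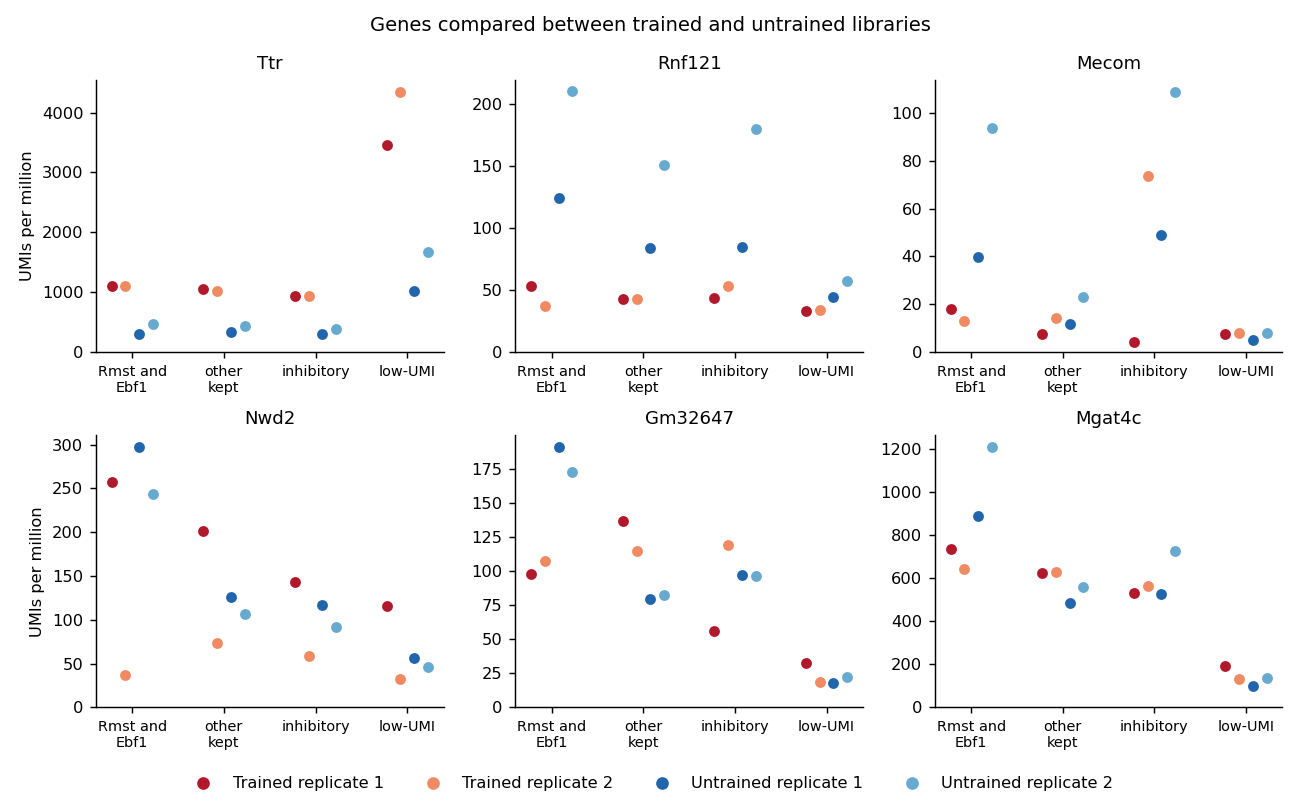
Each panel plots 1 gene in CPM from 0, in the gated nuclei, other kept nuclei, the inhibitory class and low-UMI barcodes, with 1 point per library. Ttr is at 1101 and 1107 CPM in Trained and 297 and 473 CPM in Untrained gated nuclei and is higher in both Trained libraries in every class shown, and Nwd2 is low in Trained replicate 2 in all 4 classes.

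Whether training changed a gene differently in the gated nuclei than in all other kept nuclei was tested as an interaction, with both sums of a library kept together as a block. Of 14646 genes tested, 3 passed (0.0205%), all with a lower change in the gated nuclei, and 636 had an unadjusted p under 0.05. Nwd2 differed by -1.53 ± 0.24 (SE; edgeR adjusted p = 2.16e-06), and without Trained replicate 2 by -0.98 (edgeR adjusted p = 0.332). The noncoding RNA Gm32647 stood at 97.7 and 107 CPM in the Trained and 191 and 173 CPM in the Untrained libraries of the gated nuclei, and at 137 and 115 against 79.6 and 82.8 CPM in the others. The groups did not overlap in either class and lay in opposite order. Mgat4c, for an enzyme that branches N-glycans, stood at 737 and 645 against 889 and 1210 CPM in the gated nuclei and at 625 and 628 against 485 and 560 CPM in the others, again in opposite order.

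Those differences were -1.36 ± 0.23 for Gm32647 (edgeR adjusted p = 3.47e-05) and -0.91 ± 0.18 (SE) for Mgat4c (edgeR adjusted p = 0.000872). Htr2c came next at -0.78 ± 0.18 (SE; edgeR adjusted p = 0.0725). The 3 calls depended on the class compared: against the inhibitory class, 0 genes passed in edgeR, 460 had an unadjusted p under 0.05, and Gm32647 and Mgat4c differed by -0.88 and -0.45. Among gated nuclei with a UMI of Rmst or Ebf1 there were also 0 calls in edgeR and 541 genes with an unadjusted p under 0.05. Leaving out Untrained replicate 1 ended the call of Gm32647 (edgeR adjusted p = 0.103), and leaving out Untrained replicate 2 that of Mgat4c (adjusted p = 1).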

How the data were processed

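Nuclei of mouse hippocampus were profiled with a Chromium 3' chemistry, per the labels. The authors deposited, for each barcode, the counts of UMIs by gene. Per the file headers they were written by Cell Ranger 7.0.0, while the submitters' processing notes name Cell Ranger 8, STAR and GRCm39. Counts of 32285 features in 260589 barcodes were used, filtered as given above. Counts were summed per class and library. In R 4.3.3, edgeR 4.0.16 tested them by quasi-likelihood after its expression filter and TMM scaling, with Benjamini-Hochberg adjustment over all genes tested at 0.05; the interaction had the library as a block. The scripts were tested on simulated counts. DESeq2 1.42.0, other gates, doublet and free RNA settings and left-out libraries were alternatives. Python 3.11.15 with numpy 2.4.6, scipy 1.17.1, pandas 2.3.3 and matplotlib 3.10.9 was used. Members and lists were chosen with earlier results of these data known. Genes were named by a rule: the 8 genes of the gate, the 25 with the highest lowest difference from other nuclei (predicted genes only among the first 10), called genes filled up to 4 a direction, the memory list, called interactions, and the 5 most like Rmst; other genes were named from lists or after their values were seen.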

Additional observations from a re-analysis of the deposited data

Results flagged for a closer look

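For 3 genes the change with training differed between the gated nuclei and all other kept nuclei by a test of the difference itself. The log2 change of Nwd2 was lower in the gated nuclei by a difference of -1.53, that of Gm32647 by -1.36 and that of Mgat4c by -0.91 (edgeR interaction, adjusted p = 2.16e-06, 3.47e-05 and 0.000872). Over 16 alternative settings the adjusted p in edgeR ranged from 2.09e-07 to 1 for Nwd2, from 9.88e-07 to 1 for Gm32647 and from 0.000477 to 1 for Mgat4c, and the direction was the same in all 16 for each gene.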

How the results depend on the processing

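The 5 genes called between Trained and Untrained gated nuclei became 2 with the replicate block, 1 with the DESeq2 Wald test, 0 with at least 1000 UMIs a nucleus, 0 with at least 5 UMIs from at least 3 genes, 2 with a gate without Ebf1, 2 without mixed profiles and 0 after subtraction of free RNA. At an unadjusted p under 0.05, edgeR gave 263, 283 and 213 genes where it called 0. Limited to members with a UMI of Rmst or Ebf1, a setting chosen after seeing the data, 2 were called. Leaving out 1 library at a time gave 4 to 9 calls, with 9 without Trained replicate 1. Without Trained replicate 2 the 5 calls were 5 higher and 0 lower, and 1 of them was among the 5 first called. Where an arm was left with 1 library, its spread was assumed to be that of the other group. Ttr kept its call in 13 of 16 settings and Rnf121 in 10. The 3 interaction calls became 0 without the library block (474 genes at an unadjusted p under 0.05), 0 with the replicate block in its place (501), 0 against the inhibitory class, 1 without mixed profiles and 0 among members with a UMI of Rmst or Ebf1, and 2 to 13 with 1 library left out, with 5 without Trained replicate 1 and 13 without Trained replicate 2. The difference in share ranged from -3.78 to 0.0421 points with 1 library left out, and only the value without Untrained replicate 2 was above 0. Replicate numbers are shared between groups by name only: the correlation of same-numbered deviations was 0.00117 over 8320 genes. Shallow nuclei, few in Trained replicate 1, limit every value given here.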
